A study of Mus musculus with 8 samples.

Results

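Intercalated disc junction genes are described here in sorted mouse embryonic heart cells. They are 10 genes in all, of the adherens junction, the desmosome and a scaffold that neighbours both (Tjp1), out of 27729 gene names on the arrays: Cdh2, Ctnnb1, Ctnna1, Ctnna3, Jup, Dsp, Dsg2, Dsc2, Pkp2 and Tjp1. Members were taken by the gene name given in the scanner files, which assigned them 26 of 41174 non-control probes. All hearts came from E10.5 mouse embryos, at mid-gestation, that carried the minKGFP transgene, a bacterial artificial chromosome (BAC) with green fluorescent protein as a reporter of minK, also named Kcne1, which encodes a subunit of potassium channels. Hearts were digested to single cells and sorted by fluorescence. The bright cells (GFP-high, 4 arrays) are labelled as conduction system and the dim cells (GFP-low, 4 arrays) as chamber myocardium. Both groups carried the transgene and were separated by the sorting gate, so membership rests on reporter brightness. The labels do not say how many embryos entered a sample or whether the replicates came from separate litters, so p-values measure only the spread between these samples.

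Cardiomyocytes are joined end to end by cell junctions that later gather into the intercalated disc. In adherens junctions a cadherin spans the gap between cells, and catenins tie its tail to actin. In desmosomes, desmogleins and desmocollins span the gap, and plakoglobin, plakophilin and desmoplakin tie them to intermediate filaments. In the embryonic heart these junctions lie all along the cell borders, and genes of the desmosome are known for their part in human arrhythmogenic cardiomyopathy.

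Levels are given as log2 of the processed signal minus the 75th percentile of the array, so a level of 0 equals the signal below which 75% of the probes of that array lie. Differences are GFP-high minus GFP-low on this scale, from a limma fit over 12874 genes, and a gene was called at a Benjamini-Hochberg adjusted p under 0.05. The brightest probe stood for each gene, and genes entered the fit where 4 or more of the 8 arrays had that probe well above background. The share of spots well above background was lowest on GFP-high replicate 3, at 36.3%, and highest on GFP-low replicate 2, at 50.7%. The arrays lay on 2 slides, each with both groups: replicates 1 and 2 shared slide 1, and replicates 3 and 4 shared slide 2.

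Of the 10 junction genes, 9 were tested, and 8 were well above background on all 8 arrays, whereas 32.5% of all genes on the array were. The exceptions were Ctnna3, detected in this sense on 3 arrays of GFP-high and all 4 of GFP-low, and Dsg2, whose brightest probe was detected on 1 GFP-high array and on 2 of GFP-low and was not tested. None of the 9 passed the limma test over all genes (0 higher and 0 lower), and 0.14% of all tested genes did (18 genes, 0.0699% higher and 0.0699% lower in GFP-high). At an unadjusted limma p under 0.05 there were 2 members, Tjp1 and Cdh2, both lower in GFP-high, and 14.3% of all tested genes met that criterion, 7.94% higher and 6.38% lower in GFP-high. The levels did not overlap between the groups in these same 2 members, and they did not overlap in 8.95% of all tested genes, with 5.86% all higher and 3.08% all lower in GFP-high. Positive differences were found in 3 of the 9 members and in 62.1% of all tested genes. The median difference was -0.031 over the members and 0.16 over all tested genes.

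**Figure D1:**
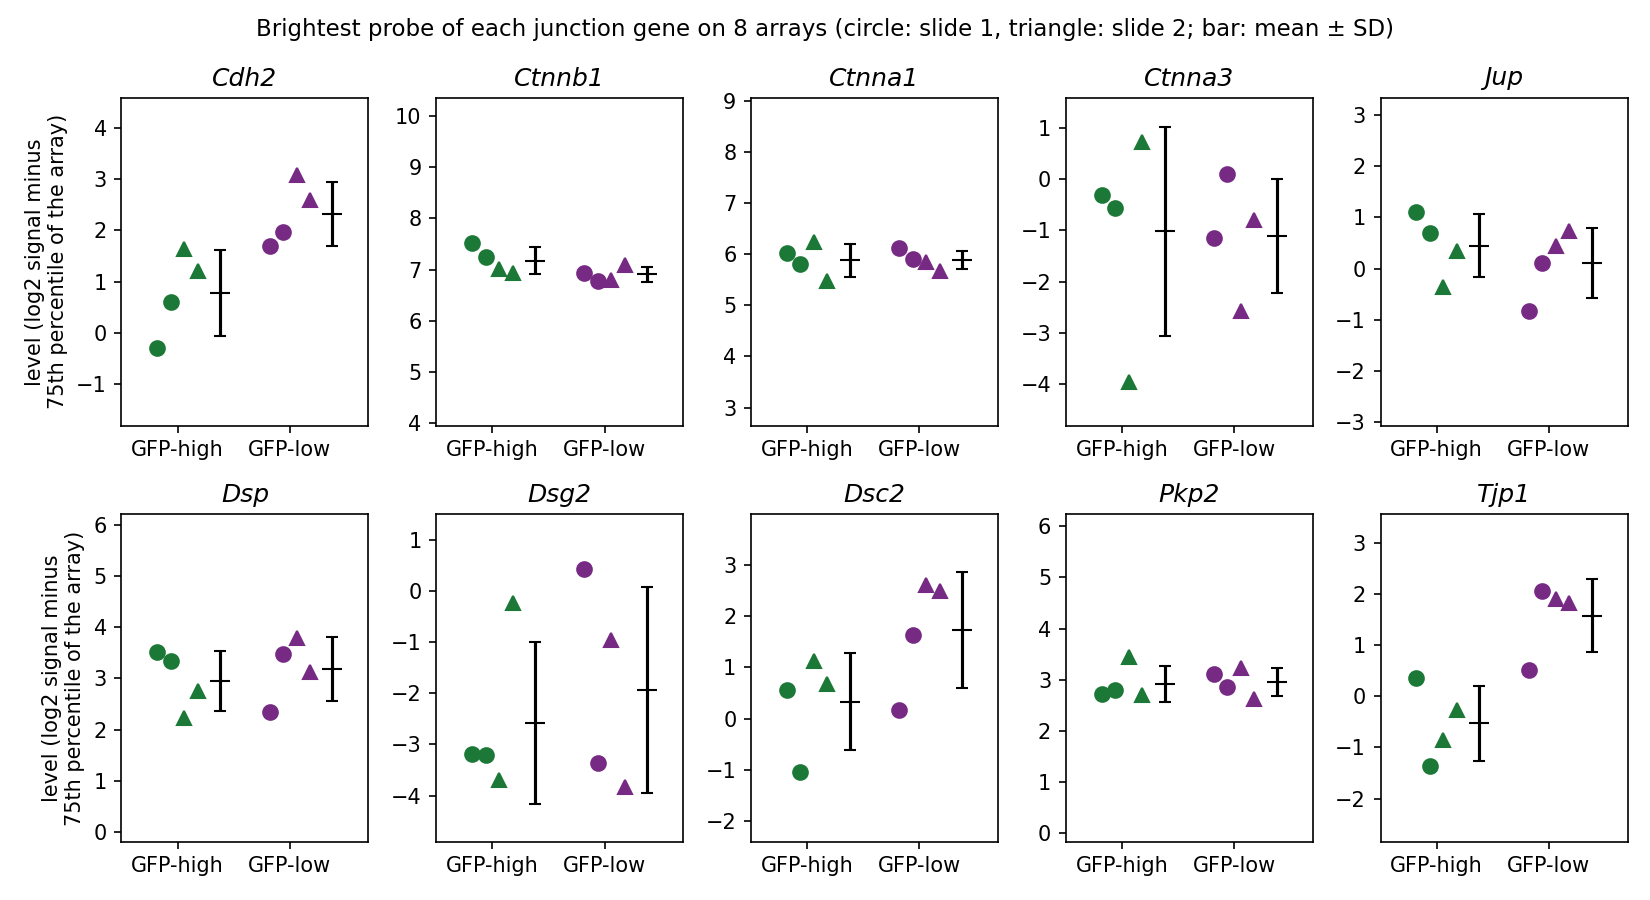
Level of the brightest probe of each of the 10 genes on each array (y axis: log2 signal minus the 75th percentile of the array; every panel spans the same range). Each point is 1 array, circles are slide 1 and triangles slide 2, and bars give the mean ± SD of 4 arrays. Tjp1 and Cdh2 have no overlap between GFP-high and GFP-low, and Ctnna1 and Pkp2 have nearly equal means.

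Cdh2, which encodes N-cadherin, the cadherin of cardiomyocyte junctions, had lower levels in GFP-high. It read -0.30, 0.60, 1.63 and 1.20 on GFP-high replicates 1 to 4, against 1.69, 1.97, 3.07 and 2.59 on GFP-low replicates 1 to 4. The groups did not overlap, although the highest GFP-high array lay just under the lowest GFP-low array. The means were 0.78 ± 0.84 in GFP-high and 2.33 ± 0.62 in GFP-low (SD, n = 4 each), a log2 difference of -1.55 ± 0.48 (SE) or 2.92-fold. This did not pass over all genes (limma adjusted p = 0.244). The exact two-sided permutation p was 0.0286, the smallest that 4 against 4 arrays can give when the slides are ignored. Every exact p-value given here let arrays swap between the slides. In bulk RNA of sorted cells, fewer cells with a transcript and less transcript per cell cannot be told apart. The other 2 probes of Cdh2 were well above background on at most 1 array of a group, so they give no second measurement. The measured probe has an annotated interval of 30 bases, shorter than its 60 bases.

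Part of the spread of Cdh2 followed the slides. Slide 2 read higher than slide 1 by 1.26 in GFP-high and by 1.01 in GFP-low. The GFP-high minus GFP-low difference was -1.67 within slide 1 and -1.42 within slide 2. With the slide as a block, the limma adjusted p of Cdh2 was 0.131.

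Ctnnb1 encodes beta-catenin, which binds the cadherin tail and also carries the Wnt signal to the nucleus. Its brightest probe (chr9:120869274-120869333, mm9) read 7.52, 7.25, 7.01 and 6.94 in GFP-high, against 6.94, 6.79, 6.80 and 7.10 in GFP-low. The groups overlapped, with GFP-high replicate 1 highest and GFP-low replicate 2 lowest, and the whole range over 8 arrays was 0.73. The log2 difference was 0.27 ± 0.23 (SE, limma adjusted p = 0.592, exact two-sided permutation p = 0.143), with a 95% interval from -0.26 to 0.80. A second probe (chr9:120868778-120868837) gave 0.36 and the dimmest, detected on 2 arrays of GFP-high and 3 of GFP-low, gave 0.33. None of the probes of the 10 genes was called in the fit over single probes, in which 0.0379% of all probes were.

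The second Ctnnb1 probe was printed at 10 spots of each array, which shows the error of a spot. The SD over its spots was between 0.019 and 0.22 within an array, the largest on GFP-low replicate 3, and 2 spots were left out as outliers on GFP-high replicate 2. Across arrays, the SD of the same probe was 0.45 in GFP-high and 0.17 in GFP-low (n = 4 each). The spread between samples was thus larger than that between spots on all arrays but GFP-low replicate 3.

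Ctnna1 encodes alpha-E-catenin, which links beta-catenin to actin. It read 6.02, 5.80, 6.23 and 5.47 in GFP-high, against 6.12, 5.90, 5.84 and 5.68 in GFP-low. Both the highest and the lowest value were GFP-high arrays, so the GFP-low range lay inside the GFP-high range. The difference was -0.0062 ± 0.25 (SE, limma adjusted p = 0.994), with a 95% interval from -0.58 to 0.56 on the log2 scale. The second probe was well above background on 1 GFP-high array and no GFP-low array, and gives no second measurement.

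Ctnna3 encodes alpha-T-catenin, the alpha-catenin enriched in heart muscle. Its measured probe (chr10:64408716-64422520, mm9, an interval longer than the probe's 60 bases) read -0.30, -0.55, -3.96 and 0.73 in GFP-high, against -1.15, 0.10, -2.57 and -0.81 in GFP-low. Replicate 3 was the lowest of its group in both groups, and on GFP-high replicate 3 the probe was not well above background. The difference was 0.083 ± 0.99 (SE, limma adjusted p = 0.976), and its 95% interval from -2.18 to 2.35 covers changes of several fold either way. No array detected the second probe.

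Jup encodes plakoglobin, the catenin shared by adherens junctions and desmosomes. Its only probe (chr11:100232695-100232754) read 1.1, 0.69, -0.35 and 0.34 in GFP-high, against -0.84, 0.11, 0.43 and 0.74 in GFP-low. The groups overlapped fully apart from GFP-high replicate 1, the highest, and GFP-low replicate 1, the lowest. The difference was 0.34 ± 0.43 (SE, limma adjusted p = 0.726). It was 1.26 within slide 1 and -0.59 within slide 2, so its sign was not shared by the slides.

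**Figure D2:**
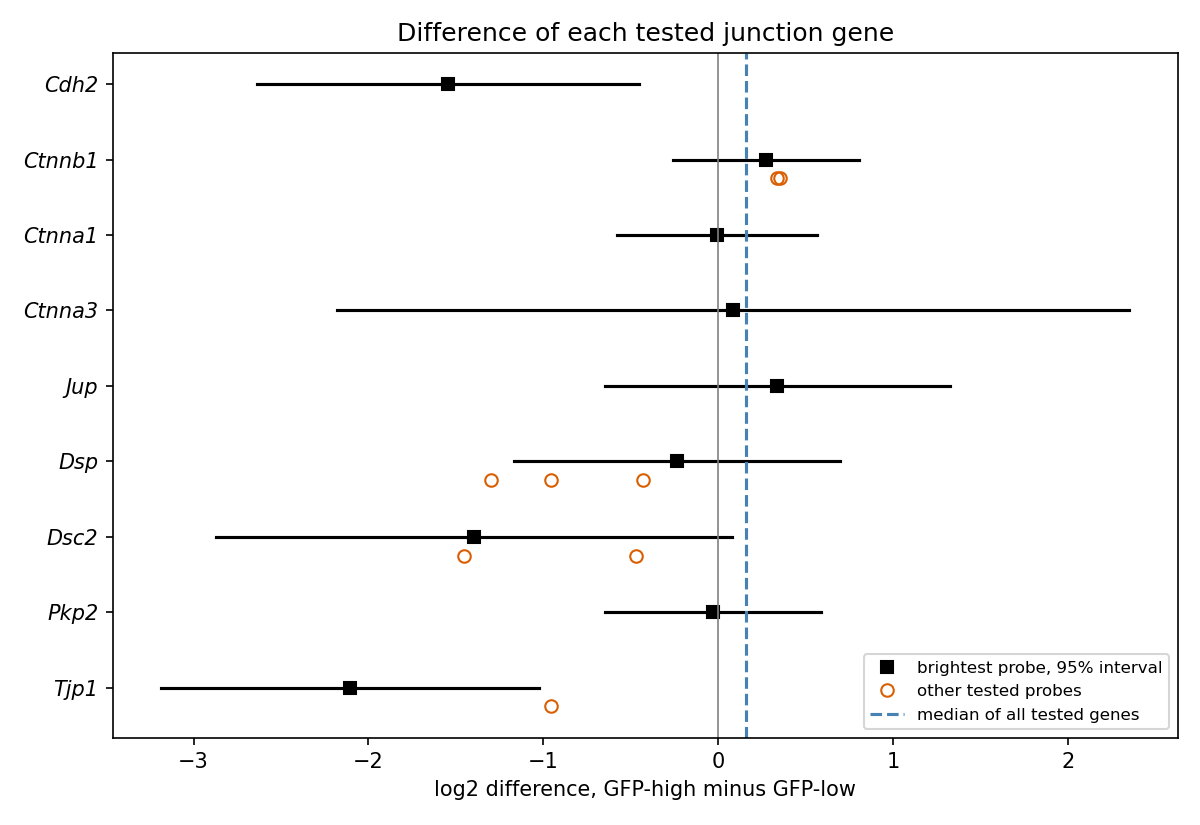
Log2 difference of GFP-high minus GFP-low (x axis) for the 9 tested genes; squares are the brightest probe with its 95% interval, open circles the other probes tested, and the dashed line the median of all tested genes, 0.16. The intervals of Tjp1 and Cdh2 lie below 0, and those of the other 7 genes include it.

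Dsc2 encodes desmocollin-2, a transmembrane cadherin of the desmosome. It read 0.56, -1.03, 1.13 and 0.67 in GFP-high, against 0.17, 1.63, 2.62 and 2.50 in GFP-low. GFP-low replicates 2 to 4 lay above every GFP-high array, and GFP-low replicate 1 lay among them. The means were 0.33 ± 0.94 in GFP-high and 1.73 ± 1.13 in GFP-low (SD, n = 4 each), a difference of -1.40 ± 0.65 (SE, limma adjusted p = 0.365, exact two-sided permutation p = 0.143). Its other 2 tested probes gave -0.47 and -1.46, so all 3 had the same sign. Like Cdh2, Dsc2 read higher on slide 2 in both groups, by 1.14 in GFP-high and by 1.66 in GFP-low. The difference was -1.14 within slide 1 and -1.66 within slide 2.

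Dsg2, which encodes desmoglein-2, the desmoglein of heart muscle, was near background. Its brightest probe was well above background on GFP-high replicate 4, at -0.23, and on GFP-low replicates 1 and 3, at 0.42 and -0.96. On the other 5 arrays this probe read between -3.83 and -3.18 and gives only a bound. Another probe was detected on GFP-high replicate 4, at 0.19, and on GFP-low replicate 1, at -0.84, but not on GFP-low replicate 3, at -3.0. A further probe was detected on no GFP-high array and on GFP-low replicates 2 and 3, with means of -4.58 in GFP-high and -3.24 in GFP-low. The remaining 2 probes were detected on no array. Over all 5 probes, 1 GFP-high array and 3 GFP-low arrays thus detected Dsg2, and the probes differed in which. No difference is therefore given for Dsg2.

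Pkp2 encodes plakophilin-2, which fastens the desmosomal plaque. Its only probe (chr16:16272648-16272707) read 2.72, 2.81, 3.45 and 2.71 in GFP-high, against 3.11, 2.85, 3.22 and 2.62 in GFP-low. GFP-high replicate 3 stood above the other GFP-high arrays, and the groups overlapped. The difference was -0.031 ± 0.27 (SE, limma adjusted p = 0.968), with a 95% interval from -0.65 to 0.59.

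Dsp encodes desmoplakin, which ties the plaque to intermediate filaments, and had 4 tested probes. The brightest (chr13:38290121-38290180) read 3.51, 3.33, 2.22 and 2.75 in GFP-high, against 2.35, 3.48, 3.79 and 3.13 in GFP-low. The groups overlapped, and the difference was -0.23 ± 0.41 (SE, limma adjusted p = 0.800). It was 0.51 within slide 1 and -0.98 within slide 2, again of opposite sign on the slides.

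The other 3 Dsp probes also gave negative differences, and none passed. They are printed because they sample different stretches of 1 gene. Which of its transcripts each probe lies in was not assigned. Each holds at least 1 of 3 reading frames without a stop codon, and all letters are lower case since no base is singled out.
Dsp probe at chr13:38285480-38286579 (mm9, plus strand, an interval longer than the probe): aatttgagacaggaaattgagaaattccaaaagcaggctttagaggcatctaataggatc
Dsp probe at chr13:38287658-38287717 (mm9, plus strand): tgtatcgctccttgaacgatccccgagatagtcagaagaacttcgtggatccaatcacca
Dsp probe at chr13:38289734-38289793 (mm9, plus strand): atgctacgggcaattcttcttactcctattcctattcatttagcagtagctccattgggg

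From upstream to downstream these gave -1.30 ± 0.95, -0.43 ± 0.57 and -0.95 ± 0.50 (SE of the fit over 18481 probes, limma adjusted p = 0.550, 0.746 and 0.427). The first was not well above background on GFP-high replicate 4, where it read -3.0. GFP-low replicate 2 was the highest array on all 3, and on the brightest probe GFP-low replicate 3 was. Averaging the 4 probes gave -0.73 (limma adjusted p = 0.489).

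Tjp1 encodes ZO-1, a scaffold that binds alpha-catenin, connexins and actin at cell borders, and had the largest difference of the 9 tested genes. Its brightest probe (chr7:72441703-72441762, mm9, minus strand) read 0.35, -1.36, -0.86 and -0.26 in GFP-high, against 0.51, 2.06, 1.89 and 1.82 in GFP-low. The groups did not overlap, and replicate 1 was the closest array of each group to the other. The means were -0.53 ± 0.74 in GFP-high and 1.57 ± 0.72 in GFP-low (SD, n = 4 each), a difference of -2.10 ± 0.47 (SE) or 4.30-fold. The limma adjusted p over all genes was 0.158 and the exact two-sided permutation p 0.0286, the smallest possible with the slides ignored. The difference was -1.79 within slide 1 and -2.42 within slide 2.

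The second Tjp1 probe gave a smaller difference of the same sign. It is shown because it samples Tjp1 upstream of the brightest probe.
Tjp1 probe at chr7:72458154-72458213 (mm9, minus strand): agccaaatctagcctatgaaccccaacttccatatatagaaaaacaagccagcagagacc

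It read -1.63, -1.14, -1.03 and 0.28 in GFP-high, against -0.37, 0.38, 0.15 and 0.14 in GFP-low. GFP-high replicates 1 to 3 lay below every GFP-low array and GFP-high replicate 4 did not. The difference was -0.95 ± 0.42 (SE, limma adjusted p over all tested probes 0.363, exact two-sided permutation p = 0.114). The mean over both probes was -1.53 (limma adjusted p = 0.157), and with normexp background correction the brightest probe gave -1.43 (limma adjusted p = 0.0941).

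By the root mean square difference between profiles over the 8 arrays, each centred on its own mean, the genes most like Tjp1 were Slc35b3 (0.399), Cfap36 (0.402), Atad2b (0.431), Nvl (0.448) and the clone CB723139 (0.461). Their log2 differences lay between -1.98 and -1.71. The measure depends on all arrays and is a description of these profiles only.

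**Figure D3:**
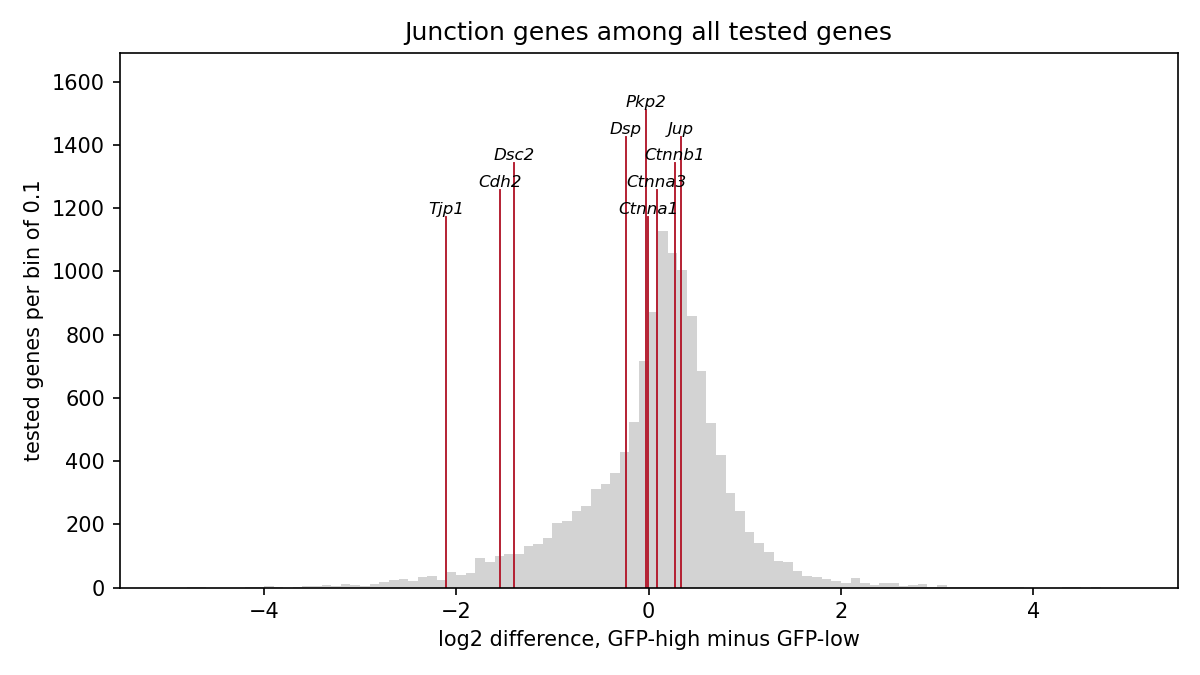
Log2 difference of GFP-high minus GFP-low (x axis) for the 12874 tested genes in bins of 0.1 (y axis: genes per bin), with a line at each of the 9 tested junction genes. Tjp1, Cdh2 and Dsc2 lie in the lower tail, and the other 6 lie near the middle of the distribution.

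Among the differences of all tested genes, Tjp1 lay at percentile 1.94, Cdh2 at 4.75 and Dsc2 at 5.97, counted from the lowest. The other 6 tested members lay between percentile 27.1 (Dsp) and 64.8 (Jup). Within-group SDs of the 9 ran from 0.21 for Ctnnb1 to 1.64 for Ctnna3, with a median of 0.65, against a median of 0.57 over all tested genes. The 3 members with the smallest SD were Ctnnb1, Ctnna1 and Pkp2, whose values ranged over at most 0.83 across the 8 arrays.

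**Figure D4:**
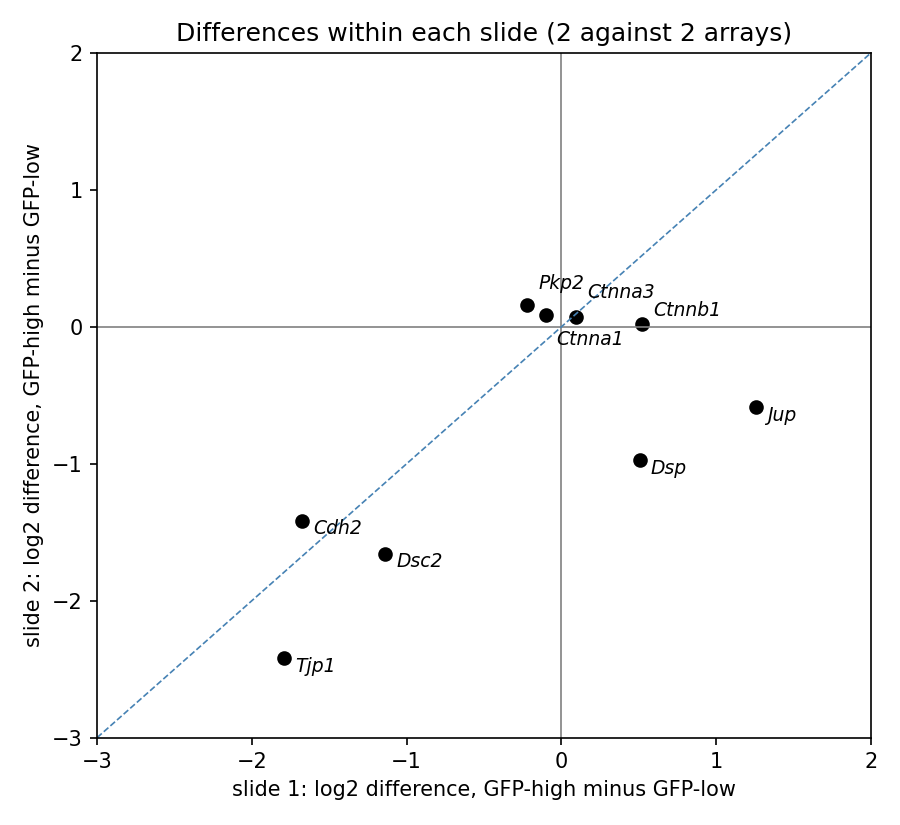
Log2 difference of GFP-high minus GFP-low within slide 1 (x axis) and within slide 2 (y axis), 2 against 2 arrays each, for the 9 tested genes; the dashed line marks equal differences. Tjp1, Cdh2 and Dsc2 are below 0 on both slides, whereas Jup and Dsp are above 0 on slide 1 and below 0 on slide 2.

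Other genes of the junctions were examined in 5 lists, and no member of them passed in either direction. In the list of actin linkers and nectins of the adherens junction, all 17 genes were tested, 4 had positive differences and the median was -0.42. Its smallest p-values belonged to Sorbs2, an adaptor of the actin cytoskeleton, and Actn1, a non-muscle alpha-actinin. Sorbs2 read 1.43, 1.5, 2.53 and 1.68 in GFP-high, against 2.67, 3.70, 3.59 and 3.10 in GFP-low. Actn1 read 0.21, -1.47, -0.94 and -0.56 in GFP-high, against 1.18, 1.30, 0.52 and 0.38 in GFP-low. Neither overlapped between the groups, with differences of -1.48 ± 0.35 for Sorbs2 and -1.54 ± 0.40 for Actn1 (SE, limma adjusted p = 0.169 and 0.192). In this list 4 of 17 genes had no overlap, 3 lower and 1 higher in GFP-high, where 8.95% of all tested genes had none (3.08% lower and 5.86% higher). The higher one was Pdlim1, a LIM protein that binds alpha-actinin, at 0.90 (limma adjusted p = 0.202; named after its value was seen).

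Of 16 tested muscle proteins that gather at the disc, 12 were positive, where 62.1% of all tested genes were, and the median was 0.39, against 0.16 over all tested genes. In 5 of the 16 the groups did not overlap, 3 higher and 2 lower in GFP-high. Over all tested genes 8.95% did not overlap, 5.86% higher and 3.08% lower in GFP-high. Ank3, which encodes the membrane anchor ankyrin-G, read -0.32, -2.0, 0.40 and -1.10 in GFP-high, against 0.42, 1.14, 1.46 and 1.0 in GFP-low. These did not overlap, although the highest GFP-high array was just under the lowest GFP-low array, and the difference was -1.76 ± 0.51 (SE, limma adjusted p = 0.227). Csrp3, a muscle LIM protein gene, had 7.12, 7.21, 6.71 and 6.96 in GFP-high, against 6.15, 6.40, 5.82 and 6.34 in GFP-low. Its arrays were also separate, in the other direction, at 0.82 ± 0.24 (limma adjusted p = 0.235).

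Of 10 tested partners in tight and gap junctions, 6 were positive and the median was 0.077. Gja1, the connexin 43 gene, read 1.89, 1.66, 3.14 and 1.68 in GFP-high, against 3.76, 3.42, 4.27 and 3.06 in GFP-low. Only GFP-high replicate 3 reached into the GFP-low range, and the difference was -1.53 ± 0.42 (SE, limma adjusted p = 0.202). Cxadr, which encodes a cell adhesion receptor of the disc, had -0.93 ± 0.61 (limma adjusted p = 0.498).

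Of 10 tested cadherin and catenin genes outside the 10 members, 6 were positive and the median was 0.039. Ctnnbip1, an inhibitor of beta-catenin, had 0.58 ± 0.29 and Arvcf, a catenin of the p120 family, 0.44 ± 0.28 (SE, limma adjusted p = 0.393 and 0.488). No array detected Cdh1, the epithelial cadherin gene.

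Of 14 further desmosome genes, 3 were tested: Perp, Pkp4 and Des. Perp, which encodes a desmosome-associated membrane protein, read 5.27, 5.07, 5.5 and 5.10 in GFP-high, against 4.58, 4.01, 4.49 and 4.14 in GFP-low. Every GFP-high array lay above every GFP-low array, at 0.93 ± 0.24 (SE, limma adjusted p = 0.191). Pkp4 had -0.46 ± 0.32 (limma adjusted p = 0.520). In 8 of the 14, no array was well above background, and these included Pkp1, Pkp3, Dsc1 and Dsc3, genes known for epithelial desmosomes.

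**Figure D5:**
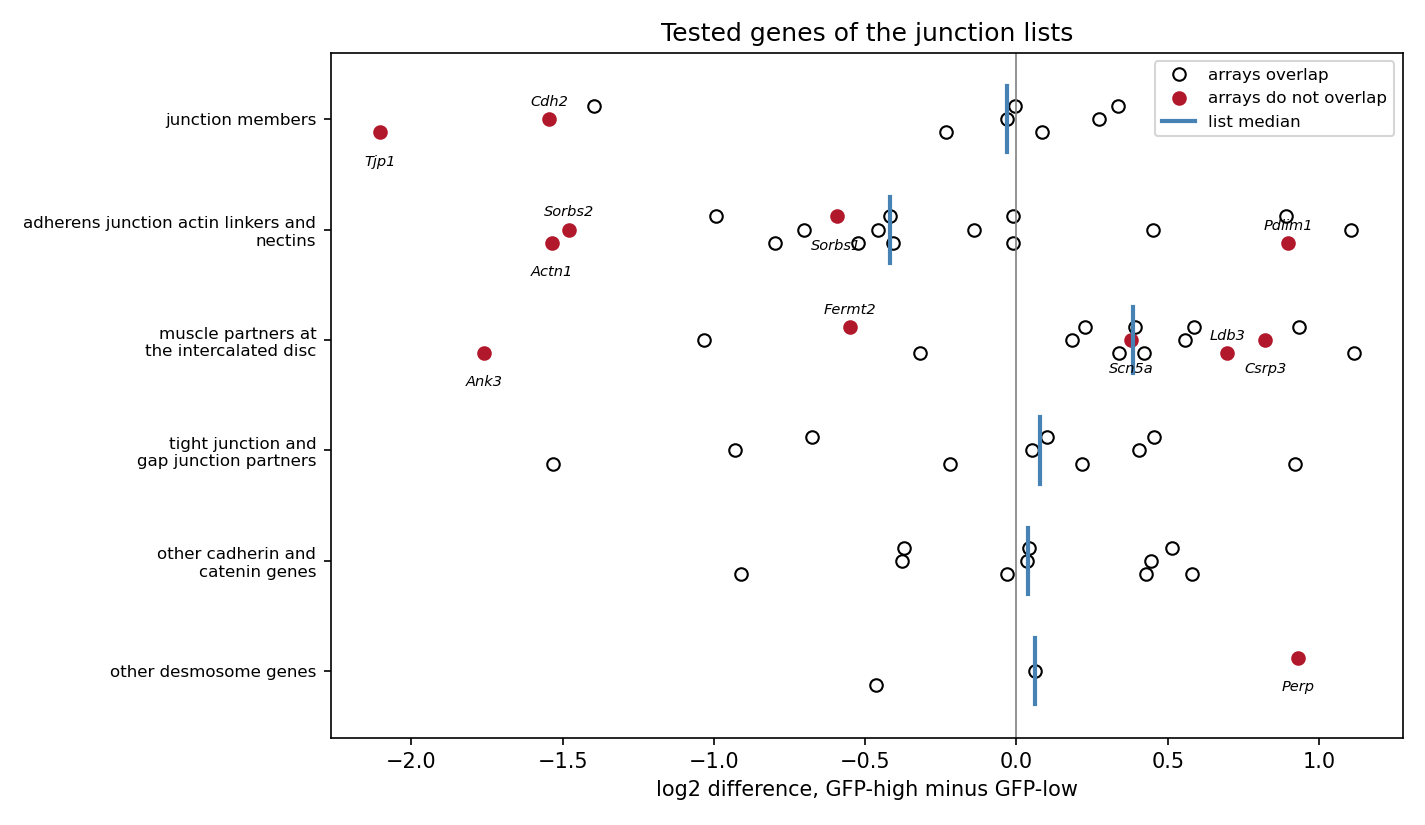
Log2 difference of GFP-high minus GFP-low (x axis) for every tested gene of the 10 junction genes and of 5 lists of related genes (rows); filled points are genes whose 4 GFP-high and 4 GFP-low arrays do not overlap, and bars mark list medians. The median is lowest for the actin linkers and nectins, at -0.42, and highest for the muscle partners, at 0.39.

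Markers of the labelled cell type were present, and all 12 cardiomyocyte genes were tested. All 12 had positive differences, where 62.1% of all tested genes did, and their median was 0.34, against 0.16 over all tested genes. None was called, and only Tnni3 did not overlap between the groups. Their summed level overlapped, from 11.54 to 12.18 in GFP-high and from 10.98 to 11.82 in GFP-low (log2). The summed level of the epicardium list did not overlap, at 5.08 to 5.70 in GFP-high and 4.35 to 5.05 in GFP-low, with 8 of 12 genes tested and all 8 positive. Taken singly, each of these 8 genes overlapped between the groups. Krt18 was the brightest of them, with means of 4.35 in GFP-high and 3.66 in GFP-low. Wt1, Tcf21 and Aldh1a2 were dim, with means from -3.16 to -2.13 in GFP-high and from -3.38 to -2.79 in GFP-low. The epicardium genes Upk3b, Upk1b, Msln and Bnc1 were not well above background on any array. The leukocyte list did not overlap either, at 3.43 to 3.93 in GFP-high and 1.82 to 2.62 in GFP-low, with 2 of 9 genes tested. Most of that sum was Lyz2, which ran from 3.35 to 3.81 in GFP-high and from 1.75 to 2.32 in GFP-low. It has a close copy, Lyz1, that could share its signal. The other tested gene, Cd68, overlapped between the groups, and Ptprc, Csf1r, Itgam and Cd52 were not well above background on any array. The endothelium list overlapped, at 2.13 to 2.80 in GFP-high and 1.80 to 2.90 in GFP-low, as did cushion mesenchyme, at 5.42 to 5.89 in GFP-high and 5.46 to 6.05 in GFP-low. Foregut epithelium, erythroid cells and neural crest overlapped as well. The part of these cell types in the differences of the junction genes was not tested.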

How the data were processed

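Sorted cells (4 samples GFP-high, 4 GFP-low) were measured on 1-colour Agilent arrays, after 5 ng of total RNA was amplified and 2 ug of product labelled, per the labels' protocols. The deposited values are spot intensities on a linear scale, read with Agilent Feature Extraction 10.5.1.1 per the submitters' processing notes. The software had removed background and spatial and multiplicative trends and set surrogates for the lowest values, per the file headers. The whole-series table held the same intensities in all 45018 spots.

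The analysed value was log2 of the processed signal, less the 75th percentile of the 43379 non-control spots on that array. Outlier spots were dropped, and repeat spots of a probe were averaged. Of 41174 probes, 33070 matched a current symbol through the RefSeq table of GRCm38.p6, used for names and chromosomes only, and coordinates are those of the files (mm9). R 4.3.3 and limma 3.58.1 (lmFit and eBayes, group as the only term) fitted 12874 genes, and the code was tested on simulated data. The number of arrays limits the precision. Genes named from other lists were those past the threshold and the 2 with the smallest p. Probe sequences are those of the files. Members and lists were chosen with earlier results of these data known.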

Additional observations from a re-analysis of the deposited data

Results flagged for a closer look

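Of 54 groups of 4 arrays examined, 4 held 1 array far from the other 3, and chance gives about 1 in 20. For Pkp2, GFP-high replicate 3 read 3.45, with the nearest GFP-high array at 2.81. For Tjp1, GFP-low replicate 1 read 0.51, with the nearest GFP-low array at 1.82, so this array narrows the gap between the groups. For Gja1, GFP-high replicate 3 read 3.14, with the nearest GFP-high array at 1.89, which is why the groups overlap. For Cxadr, GFP-low replicate 1 read 1.40, with the nearest GFP-low array at 2.68. All 4 thus lay on GFP-high replicate 3 or GFP-low replicate 1. These arrays had the lowest shares of spots well above background, 36.3% and 40.5%. They also had the highest summed levels of the erythroid list, 7.61 and 7.52 (log2). The part of either in the flagged values was not tested.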

How the results depend on the processing

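No junction gene and no gene of the related lists passed in any of 20 alternatives. Cdh2, Dsc2 and Tjp1 stayed negative and Ctnnb1 and Jup positive in all 20, with adjusted p from 0.0914 to 0.338 for Tjp1 and from 0.131 to 0.469 for Cdh2. Some of the alternatives could not change these differences. They were the whole-series table, the slide or replicate number as a block, another variance model and another detection filter. Each reuses the same values, so an unchanged sign there is no separate check. Non-overlapping members numbered 1 in place of 2 with normexp, with normexp and quantile normalisation and with median scaling, and 2 to 3 without single arrays. The members' median lay between -0.20 and -0.030 under 12 other settings, between -0.17 and 0.020 without single arrays, and at -0.59 within slide 2. Signs reversed in 5 of the 9 tested members. With quantile normalisation Ctnna3 was -0.14. Within slide 1 Dsp was 0.51, and within slide 2 Ctnna1 was 0.090, Jup -0.59 and Pkp2 0.16. Without single arrays Ctnna1 ran from -0.12 to 0.13, Ctnna3 from -0.50 to 1.06, Dsp from -0.51 to 0.0105 and Pkp2 from -0.21 to 0.059. The cause was not tested. Arrays with the same replicate number had deviations correlated at 0.114, 0.153, 0.303 and 0.065, of which 3 of 4 exceed 0.1. Of the 8 arrays, 7 correlated best with their own number (4 GFP-high and 3 GFP-low), a hint from the data and not from the design, and the numbers were not taken as pairs because 1 pair is under 0.1. With the replicate number as a block the members' median had to stay at -0.031, since each number had 1 array per group. The limma adjusted p was then 0.148 for Cdh2 and 0.204 for Tjp1, and 0 genes passed over all genes (lowest adjusted p 0.134). The median difference of all tested genes, 0.16, lay between 0.051 and 0.20 under the other settings. Genes called over all tested numbered 18, but 0 with median scaling, 3 without a filter, 9 with quantile normalisation, 11 with the slide as a block or with probes well above background on all 8 arrays, 42 with a common floor and 0 to 7 without single arrays. Low signal limits Dsg2 and Ctnna3.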
